A study of Mus musculus with 20 samples.

Results

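The p53 transcription factor gene Trp53, its family members Trp63 and Trp73, and 4 genes that act back on p53 (Mdm2, Mdm4, Ppm1d and Ccng1) were followed across mouse gastric organoids, self-organising cultures of stomach epithelium. The 7 genes were taken by symbol from a table of raw RNA-seq counts for 24047 genes, and every one of them had a row. The table held 20 libraries from 8 organoid lines of strain BL/6, all grown in conditioned medium, and the libraries of a line share the number at the start of their titles. The lines labelled p53 KO were 794 and 801 (dysplastic, KO made in vivo, 3 libraries each), 650 (non-dysplastic, KO made in vivo, 2 libraries) and 1270 (non-dysplastic, KO made ex vivo, 2 libraries). The WT lines were 565 and 752 (dysplastic, 3 libraries each) and 300 and 1269 (non-dysplastic, 2 libraries each). Line 1270 was the only ex vivo KO line, so effects of making the KO ex vivo cannot be told apart from that line. The labels do not give the altered part of Trp53 or tell which animals the lines came from, so the tests see only how far these lines spread, and a protocol text calls the KO organoids mutant. The series asked how mRNA levels in gastric organoids differ with and without p53.

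The p53 protein turns on genes of cell-cycle arrest, apoptosis and repair after stress, and its gene is often mutated in gastric cancer. Mdm2 is itself turned on by p53, and the ubiquitin ligase it encodes marks p53 for destruction, which closes a negative feedback loop. Mdm4, a relative of Mdm2, encodes a protein that binds and silences the activation domain of p53, the phosphatase Ppm1d removes activating phosphates from p53 and its kinases, and the cyclin encoded by Ccng1 brings a phosphatase to Mdm2. Trp63 maintains basal and squamous epithelium, and Trp73 is needed for multiciliated cells.

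Library totals ran from 5669521 to 16323270 counts and line totals from 22217126 to 36880593. Levels are CPM, counts brought to a common library total, taken on line sums after TMM, a scaling that balances the bulk of genes between samples, and mean ± SD is over 4 KO or 4 WT lines. The epithelial markers Epcam, Cdh1, Krt8, Krt18, Krt19 and Cldn18 summed to between 10880 and 14620 CPM over all 8 lines. The 7 gastric mucous and chief cell markers Tff1, Tff2, Gkn1, Muc5ac, Muc6, Pgc and Gif summed to between 376 and 5120 CPM in KO lines and between 218 and 1974 CPM in WT lines, with none at 0, though Tff1 among them stayed at or below 0.432 CPM in KO lines and 0.429 CPM in WT lines. In 6 libraries, the last-numbered of lines 794, 801, 650, 565, 752 and 300, the longest genes (top 25% by exonic length) stood lower against the shortest (bottom 25%) than in the same line's other libraries, by -0.54 to -1.17 on the log2 scale, and the same measure lay between -0.13 and 0.13 in the libraries of lines 1270 and 1269. No pair of libraries of a line agreed within sampling noise. Strand use is not given, and the processed pseudogenes Trp53-ps and Mdm4-ps and the overlapping antisense gene Trp73os are annotated in GENCODE M21, so reads that Trp53, Mdm4 or Trp73 could share with them are uncertain.

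Trp53 checks the genotype labels, and its transcript was far lower in every KO line than in any WT line, though present in all 8. Trp53 was at 6.92 CPM in line 794, 22.2 CPM in line 801, 26.9 CPM in line 650 and 4.99 CPM in line 1270 among KO lines, against 154 CPM in line 565, 122 CPM in line 752, 112 CPM in line 300 and 161 CPM in line 1269 among WT lines. Neither the lines nor the libraries of the genotypes overlapped. The KO libraries ran from 4.42 through a median of 14.9 to 33.0 CPM, and the WT libraries from 98.6 through a median of 144 to 164 CPM. KO lines averaged 15.3 ± 11.0 CPM and WT lines 137 ± 24.0 CPM (SD, n = 4 each).

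The Trp53 transcript that remained differed among the KO lines. Against the mean of the WT lines of their own dysplasia class, lines 1270 and 794 kept 3.66% and 5.02% of the transcript, and lines 801 and 650 kept 16.1% and 19.8%. The library ranges of lines 794 and 801 did not overlap, whereas those of lines 1270 and 794, and of lines 801 and 650, did. Without the 6 libraries with the length shift, Trp53 was at 23.2 CPM in line 801 and 22.6 CPM in line 650, so these lines changed places. Among WT lines the order upward was 300, 752, 565 and 1269, and of these neighbours only 752 and 565 had library ranges that did not overlap. The summed level of 8 fibroblast markers (Col1a1, Col1a2, Col3a1, Dcn, Lum, Pdgfra, Pdgfrb and Vim) followed the Trp53 order of the KO lines over all libraries. Of the single markers Col1a1 and Pdgfrb did so (2 of 8). The sum was 8.42 CPM in line 1270, 15.5 CPM in line 794, 19.1 CPM in line 801 and 41.6 CPM in line 650, and 7.27 to 9.67 CPM over the WT lines. Among these markers, Lum was at 0 in KO line 801 and Dcn at 0 in WT line 300. The order was not particular to fibroblast markers. The epithelial sum followed it too, at 10880, 12210, 13170 and 14290 CPM in lines 1270, 794, 801 and 650. Of the single epithelial markers Krt8, Krt18 and Krt19 did so (3 of 6), and of 7 immune markers Itgam alone. The surface mucous markers Muc5ac and Gkn1, picked after their values were seen, stood apart in the KO lines lowest for Trp53. Muc5ac was at 185 and 460.4 CPM in lines 1270 and 794, and at 1.63 and 1.86 CPM in lines 801 and 650. Over the WT lines Muc5ac lay between 2.498 and 8.54 CPM. Gkn1 was at 463 and 3758 CPM in lines 1270 and 794, and at 43.8 and 22.4 CPM in lines 801 and 650. Over the WT lines Gkn1 lay between 35.6 and 159.8 CPM. Tff1 of the same list did not stand apart from WT lines. It was at 0.291 and 0.432 CPM in lines 1270 and 794, against 0.203 to 0.429 CPM over the WT lines. Of the 7 gastric mucous and chief cell markers, 0 stood in the full Trp53 order. The part of these cell types in the remaining Trp53 was not tested, and in these bulk samples fewer cells of a type and less RNA per cell cannot be told apart. A count over the whole gene also does not tell intact transcript from transcript of an altered allele.

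Trp63 and Trp73 were near or below the detection limit, and neither passed the filter on low counts, so 5 of the 7 genes were tested. Trp63 had 11 counts over the 10 KO libraries and 23 over the 10 WT libraries. Its highest line was WT line 752, with 13 counts or 0.352 CPM of the line's unscaled total (exact 95% interval 0.188 to 0.603, counting error only), and KO line 794 had 0 counts, which allows up to 0.0831 CPM at 3 counts. Basal-cell keratin Krt5, a marker of the epithelium that uses Trp63, was also low, at 0.032 to 0.359 CPM in KO lines and 0.548 to 1.07 CPM in WT lines. The whole list of 9 squamous and basal markers summed to 7.61 to 46.7 CPM in KO lines and 24.2 to 56.5 CPM in WT lines. Sprr1b was at 0 in lines of both genotypes, and Ivl alone made 3.85 to 36.7 CPM in KO lines and 19.3 to 46.9 CPM in WT lines. Directions differed within the list. Krt14, Krt13, Krt6a, Dsc3 and Sprr1b had the higher mean in KO lines, and Krt5, Krt15, Dsg3 and Ivl in WT lines. Krt5 alone had lines that did not overlap between the genotypes.

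Trp73 was counted in 4 libraries in all. It had 1 count in KO line 1270, against 17 counts in WT line 1269 and 1 in WT line 300, and it had 0 in all 12 dysplastic libraries. The 17 counts of line 1269, 5 in its first library and 12 in its second, come to 0.684 CPM of its unscaled total (exact 95% interval 0.399 to 1.10), above the 0.251 CPM that bounds the interval of line 300. The multiciliated markers Foxj1, Rfx2, Rfx3, Mcidas, Gmnc, Dnah5 and Ccno summed to 18.4 to 34.1 CPM in KO lines and 20.6 to 29.3 CPM in WT lines, with Gmnc, a switch gene of that cell type, at 0 in every line and Foxj1 at 0.199 CPM in line 1269.

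**Figure D1:**
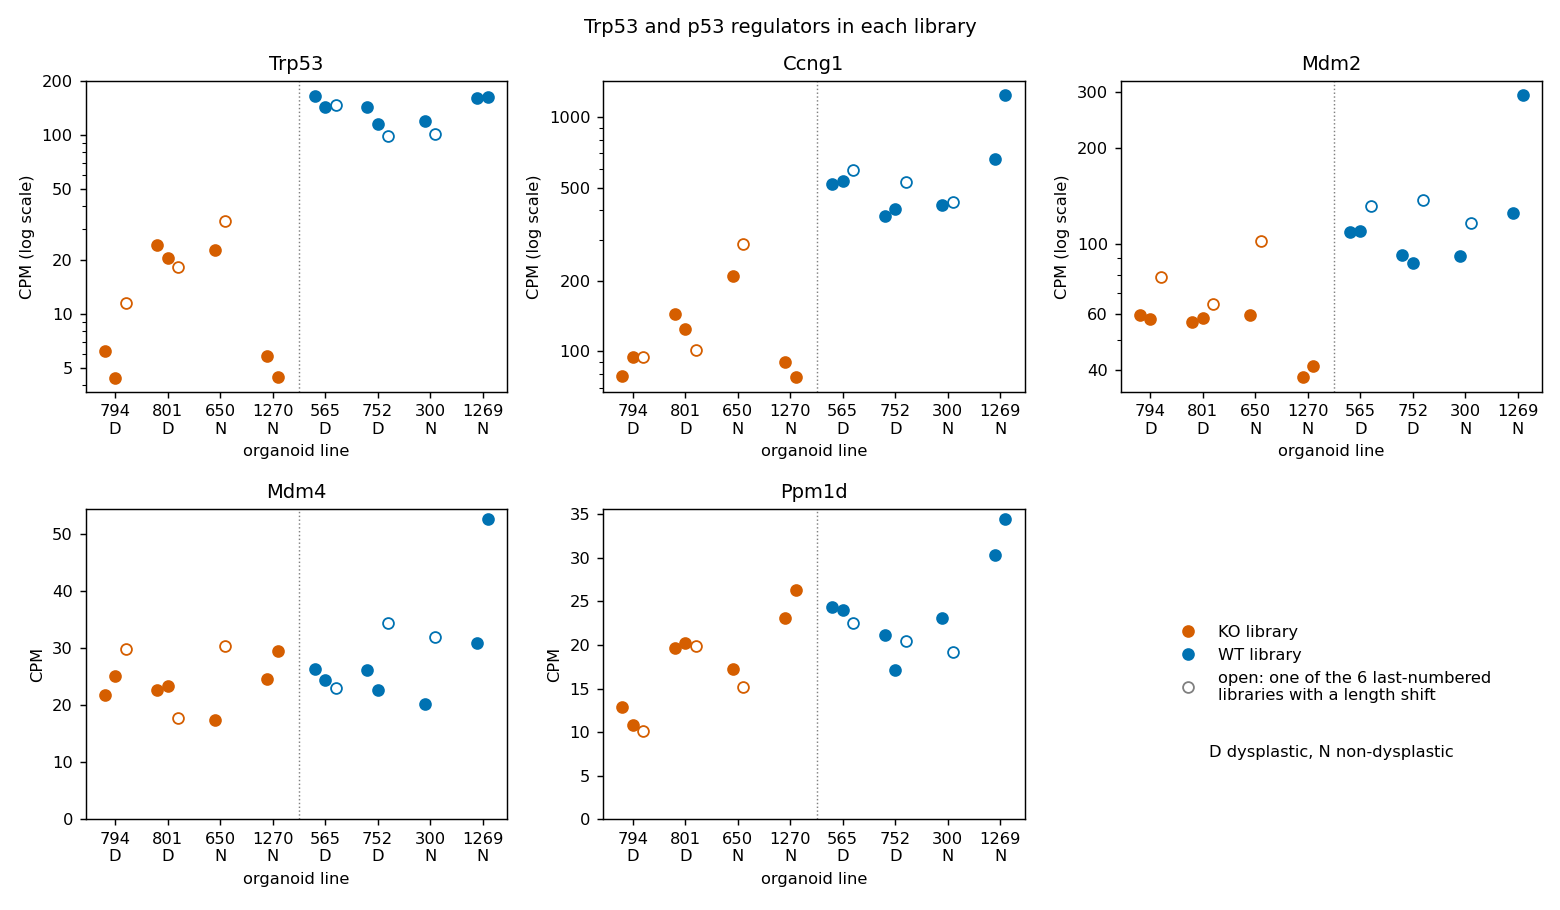
CPM of the 5 tested genes in each library (points), by organoid line, KO lines left of the dotted line and WT lines right of it, with open points for the 6 last-numbered libraries with the length shift and a log axis for Trp53, Ccng1 and Mdm2. Trp53 and Ccng1 libraries of the genotypes do not overlap, a single KO library of Mdm2 (650-2, 102 CPM) lies inside the WT range, and Mdm4 and Ppm1d overlap broadly.

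Mdm2, the ligase of the feedback loop, was lower in every KO line than in any WT line. It was at 64.0 CPM in line 794, 59.7 CPM in line 801, 77.4 CPM in line 650 and 39.3 CPM in line 1270 among KO lines, against 118 CPM in line 565, 102 CPM in line 752, 104 CPM in line 300 and 204.5 CPM in line 1269. KO lines averaged 60.1 ± 15.8 CPM and WT lines 132 ± 48.9 CPM (SD, n = 4 each). In the order of lines, only the step from line 1270 to line 801 had no overlap between libraries. Libraries of the genotypes overlapped, with KO libraries from 38.0 through a median of 59.0 to 102 CPM and WT libraries from 86.9 through a median of 113 to 292 CPM. The overlap came from library 650-2, one of the 6 with the length shift. Mdm2 stood above the mean of the line's other libraries in 6 of those 6, by a ratio of 1.13 to 1.71, and without them the KO maximum of 59.7 CPM lay below the WT minimum of 86.9 CPM.

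Mdm4, the non-ligase partner of Mdm2, differed little between the genotypes. It was at 25.04 CPM in line 794, 22.3 CPM in line 801, 22.9 CPM in line 650 and 26.9 CPM in line 1270 among KO lines, against 24.9 CPM in line 565, 26.9 CPM in line 752, 26.0 CPM in line 300 and 41.2 CPM in line 1269. The genotypes overlapped by line, WT line 1269 was the highest, and in the order of lines only its step above KO line 1270 had no overlap between libraries. KO lines averaged 24.3 ± 2.10 CPM and WT lines 29.7 ± 7.68 CPM (SD, n = 4 each), while KO libraries ran from 17.4 through 24.0 to 30.4 CPM and WT libraries from 20.2 through 26.3 to 52.7 CPM.

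Ppm1d, the phosphatase also known as Wip1, was likewise not separated by genotype. It was at 11.5 CPM in line 794, 20.3 CPM in line 801, 16.3 CPM in line 650 and 24.5 CPM in line 1270 among KO lines, against 23.9 CPM in line 565, 19.5 CPM in line 752, 21.3 CPM in line 300 and 32.1 CPM in line 1269. KO line 794 was lowest and WT line 1269 highest, and the library ranges of both stood clear of their neighbours in the order. KO lines averaged 18.1 ± 5.57 CPM and WT lines 24.2 ± 5.57 CPM (SD, n = 4 each), with KO libraries from 10.1 through 18.4 to 26.4 CPM and WT libraries from 17.2 through 22.8 to 34.4 CPM.

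Among the 7 genes followed here, Ccng1 was, beside Trp53, the other one whose genotypes did not overlap in any library. The share of all genes without overlap by library was not counted. By line, all KO lines lay under all WT lines for 197 of 13476 genes tested (1.46%). It was at 88.4 CPM in line 794, 131 CPM in line 801, 241 CPM in line 650 and 81.5 CPM in line 1270 among KO lines, against 555 CPM in line 565, 426 CPM in line 752, 429 CPM in line 300 and 935 CPM in line 1269. The 4 KO lines stood in the same order as for Trp53 over all libraries. Without the 6 libraries with the length shift, lines 801 and 650 changed places for Trp53. They did not for Ccng1, at 138 CPM in line 801 and 209 CPM in line 650. Upward through all lines, only lines 1270 and 794, and lines 752 and 300, were neighbours with overlapping library ranges. KO libraries ran from 77.3 through 98.1 to 286 CPM and WT libraries from 377 through 525 to 1242 CPM. KO lines averaged 136 ± 73.8 CPM and WT lines 586 ± 240 CPM (SD, n = 4 each).

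The p53 protein binds DNA at a consensus site, a pair of 10-base half-sites that is searched here with no spacer and on both strands. RefSeq windows of the 250 bases before annotated start sites (build GRCm38.p6) were held for 6 of the 7 genes, in 8 windows, with none for Trp63. The Ccng1 window held a site with 1 mismatch, and a Trp73 window a site with 2. These windows are shown for those reasons, each 5′ to 3′ on the gene's strand, with the site in capitals.
Ccng1, chr11:40755287-40755536, minus strand: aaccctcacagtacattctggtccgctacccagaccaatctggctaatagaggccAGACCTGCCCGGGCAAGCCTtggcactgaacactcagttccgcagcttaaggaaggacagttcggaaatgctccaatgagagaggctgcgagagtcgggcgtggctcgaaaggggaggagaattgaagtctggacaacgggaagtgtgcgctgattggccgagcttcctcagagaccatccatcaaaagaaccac
Trp73, chr4:154097174-154097423, minus strand: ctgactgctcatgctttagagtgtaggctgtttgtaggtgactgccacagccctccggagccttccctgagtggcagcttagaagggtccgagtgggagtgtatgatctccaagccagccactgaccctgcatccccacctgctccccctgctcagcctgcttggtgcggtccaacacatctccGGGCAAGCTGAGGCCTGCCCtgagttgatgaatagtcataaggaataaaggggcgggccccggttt
The Ccng1 site lies 195 to 176 bases before the start site, and the Trp73 site 66 to 47 bases before the start site of that window. Windows on 1 chromosome were left out of the search. Of the 32851 windows searched, 25 (0.0761%) held a site with at most 1 mismatch and 217 (0.661%) one with at most 2. Among the 16 of 24 other p53-induced genes with windows searched, only Cdkn1a held a site within either limit. The closest match had 3 mismatches for Trp53, 3 for Mdm4, 4 for Ppm1d and 5 for Mdm2, which says only that those letters are not in these windows. The mismatch limits were chosen after the sequences were seen.

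KO against WT was fitted as the mean of the dysplastic and the non-dysplastic difference, with edgeR's quasi-likelihood test on the 8 line sums and Benjamini-Hochberg adjustment over 13476 genes. The 3 genes whose lines did not overlap had the largest log2 fold changes among the members. Trp53 differed by -3.17 ± 0.60 (SE, edgeR adjusted p = 0.739) and ranked 24 among the genes by p. Ccng1 differed by -2.12 ± 0.41 (SE, edgeR adjusted p = 0.747) and ranked 28. Mdm2 differed by -1.11 ± 0.28 (SE, edgeR adjusted p = 0.986) and ranked 85. Ppm1d, at -0.42 ± 0.25, and Mdm4, at -0.28 ± 0.17, ranked 1429 and 1460, with an edgeR adjusted p of 1 for both.

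EdgeR called 0 of 13476 genes at an adjusted p under 0.05 (0%), the members included, while 543 genes had an unadjusted p under 0.05. The targeted gene itself is thus not called by this test, and 2 other fits were less strict. DESeq2 on the same line sums called 38 genes lower in KO, or 0.282% of those tested, and 3 members were among them: Trp53 (adjusted p = 9.62e-07), Ccng1 (adjusted p = 3.57e-05) and Mdm2 (adjusted p = 0.0343). Limma-voom on the 20 libraries, with lines as correlated blocks, called 46 genes lower in KO, or 0.363%, and the same 3 members, at adjusted p of 4.62e-05, 0.000167 and 0.0331. It used 1 within-line correlation for all genes, 0.22, so its p-values rest partly on spread between libraries of a line. For Trp53 that spread was at most 2.59 fold in a KO line, while KO lines ran from 4.99 to 26.9 CPM. With a limma-voom term for the 6 libraries with the length shift, Mdm2 was no longer called (adjusted p = 0.0549). Lines that did not overlap, all KO lines lying under all WT lines, were found for 197 genes, or 1.46%, and for 3 of the 5 members tested. The median log2 fold change over all genes tested was -0.01, and 51.5% were negative, against 5 of 5 members.

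**Figure D2:**
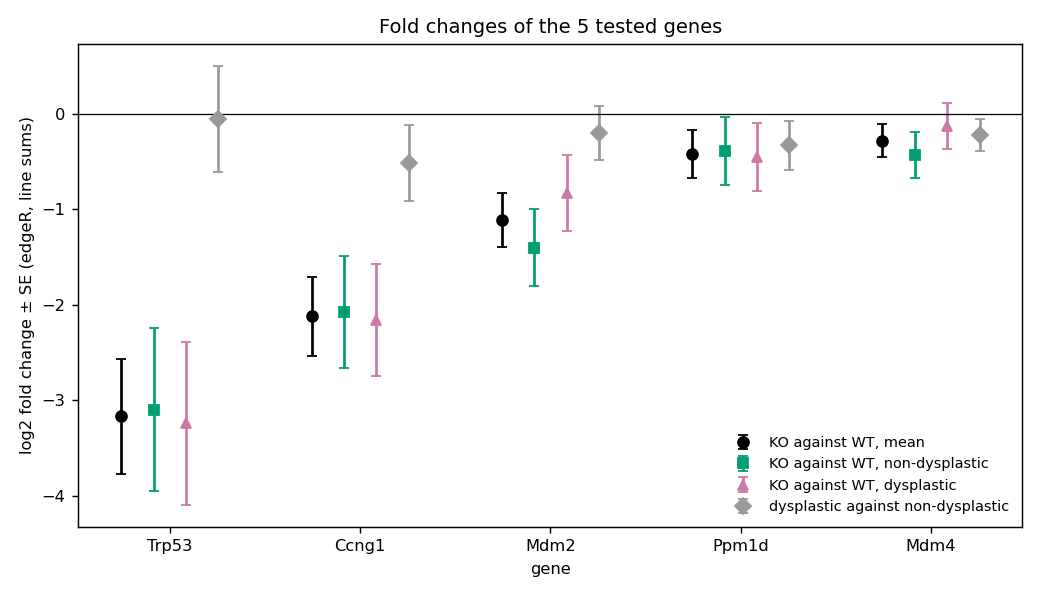
Log2 fold change ± SE of each tested gene from edgeR on line sums (y axis) by gene (x axis), for KO against WT as a mean and within each dysplasia class, and for dysplastic against non-dysplastic lines. Trp53, Ccng1 and Mdm2 lie below 0 in the 3 genotype comparisons, and the dysplasia values of all 5 genes lie between -0.52 and -0.06.

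The estimates for Trp53 and Ccng1 lay close together in both dysplasia classes. In dysplastic lines Trp53 differed by -3.24 ± 0.86 and Ccng1 by -2.16 ± 0.59, and in non-dysplastic lines by -3.10 ± 0.85 and -2.08 ± 0.59 (log2 ± SE, 2 KO against 2 WT lines each). Mdm2 differed by -0.83 ± 0.40 in dysplastic and -1.40 ± 0.41 in non-dysplastic lines. Ppm1d and Mdm4 lay at -0.45 ± 0.36 and -0.13 ± 0.24 in dysplastic lines, and at -0.39 ± 0.36 and -0.43 ± 0.24 in non-dysplastic lines. Within a class edgeR again made no call (0%), and 588 and 257 genes had an unadjusted p under 0.05 in dysplastic and non-dysplastic lines.

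By DESeq2, Trp53 (adjusted p = 0.00481) and Ccng1 (adjusted p = 0.0213) were called in dysplastic lines, where 23 genes (0.171%) were called lower in KO, and limma-voom called the same pair among 39 genes (0.308%). In non-dysplastic lines Trp53 alone was called, by DESeq2 (adjusted p = 0.0482) among 5 genes (0.0371%) and by limma-voom (adjusted p = 0.0159) among 5 genes (0.0395%). Mdm2 was called in neither class. Leaving out a line, in edgeR, moved the class values without turning a direction. In non-dysplastic lines Trp53 ran from -4.77 without line 650 to -2.32 without line 1270, Ccng1 from -3.06 without line 650 to -1.37 without line 1269, and Mdm2 from -1.97 without line 650 to -0.80 without line 1269. Mdm4 ran there from -0.73 to -0.0234 and Ppm1d from -0.70 to -0.0235. In dysplastic lines Trp53 ran from -4.32 without line 801 to -2.63 without line 794, Ccng1 from -2.48 to -1.90, Mdm2 from -0.94 to -0.735, Mdm4 from -0.21 to -0.0549 and Ppm1d from -0.93 to -0.10. The difference between the classes was tested directly as an interaction. It was -0.14 ± 1.12 for Trp53, -0.08 ± 0.80 for Ccng1, 0.58 ± 0.56 for Mdm2, 0.31 ± 0.34 for Mdm4 and -0.06 ± 0.51 for Ppm1d, with an edgeR adjusted p of 1 for each. Without 1 library of WT line 1269 (1269-2), the values were -0.16 for Trp53, -0.42 for Ccng1, 0.13 for Mdm2, 0.053 for Mdm4 and -0.13 for Ppm1d, so those of Ccng1, Mdm2, Mdm4 and Ppm1d moved by more than 1.5 times. EdgeR, DESeq2 and limma-voom each made 0 calls for the interaction (0%), where 241, 412 and 642 genes had an unadjusted p under 0.05. At an SE of 1.12, a difference of that size between the classes was not detectable for Trp53.

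The levels of dysplastic and non-dysplastic lines overlapped for every tested member. As a mean of both genotypes, the log2 difference was -0.06 ± 0.56 for Trp53, -0.20 ± 0.28 for Mdm2, -0.22 ± 0.17 for Mdm4, -0.33 ± 0.25 for Ppm1d and -0.52 ± 0.40 for Ccng1 (SE, edgeR adjusted p = 0.998 for each). Without library 1269-2 Mdm2 was at 0.0185, on the other side of 0, and Mdm4 at -0.097. In dysplastic lines Trp53 averaged 76.1 ± 72.5 CPM, against 76.1 ± 72.8 CPM in non-dysplastic lines (SD, n = 4 each), with KO lines low and WT lines high in both classes. No gene passed in edgeR (0%; 797 had an unadjusted p under 0.05), and DESeq2 and limma-voom called 1.14% each, with no member among them.

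Set beside one another, the KO lines kept different shares of each transcript. Of the WT mean of its class, line 1270 kept 12.0% of Ccng1, line 794 kept 18.0%, line 801 kept 26.7% and line 650 kept 35.4%. Mdm2 kept 25.5% in line 1270, the lowest of the 4, and 50.2% to 58.3% in the other lines, and the library ranges of lines 1270 and 801 did not overlap. Line 1270, the ex vivo KO, was thus lowest for Trp53, Ccng1 and Mdm2, and it was highest among KO lines for Mdm4 and Ppm1d in CPM. Mdm4 kept 68.0% to 96.7% over the 4 lines, and Ppm1d 52.9% to 93.3%. Shares across classes rest on unlike WT means. For Mdm2 the non-dysplastic mean was 154 CPM, from line 1269 at 204.5 CPM and line 300 at 104 CPM, and the dysplastic mean 110 CPM. Line 650 thus had the highest Mdm2 of the KO lines in CPM, at 77.4, but the lowest share after line 1270. The non-dysplastic and dysplastic means were 682 and 491 CPM for Ccng1, and 33.6 and 25.9 CPM for Mdm4.

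**Figure D3:**
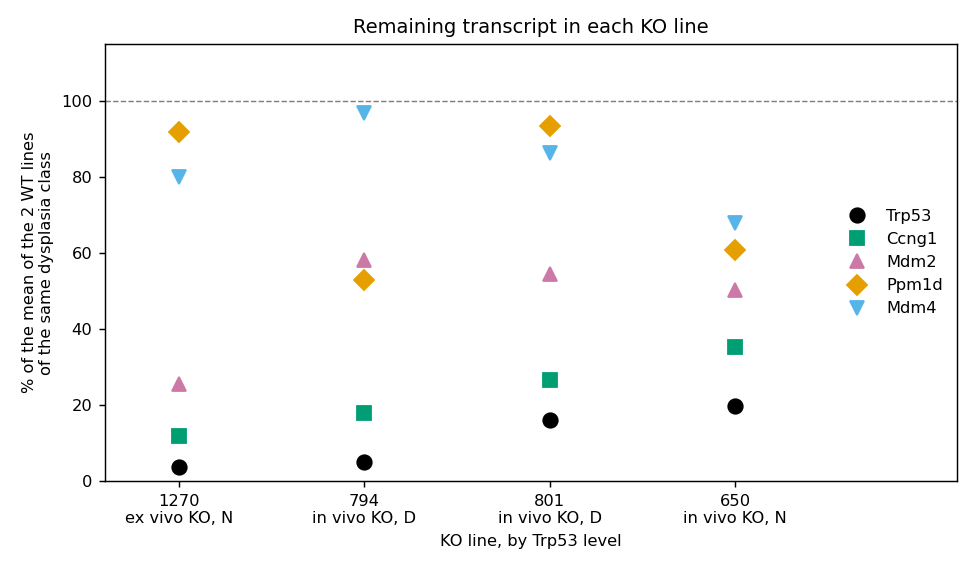
Transcript in each KO line as a percentage of the mean of both WT lines in its dysplasia class (y axis, dashed line at 100%), with KO lines ordered by Trp53 (x axis, D dysplastic, N non-dysplastic). Ccng1 stands in this Trp53 order, taken over all libraries, at 12.0% to 35.4%, whereas Mdm2, Mdm4 and Ppm1d do not.

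WT line 1269 was the highest line for all 5 tested genes and for Trp73, and its libraries differed. In library 1269-2 Mdm2 was at 292 CPM, against 125 CPM in library 1269-1, while Ccng1 was at 1242 against 660 CPM and Mdm4 at 52.7 against 31.0 CPM. Trp53 itself was nearly equal, at 163 CPM in library 1269-2 and 161 CPM in library 1269-1, and Ppm1d was at 34.4 and 30.4 CPM. Of 24 other p53-induced genes, 22 were higher in library 1269-2, against 5619 of 12671 genes. The median log2 difference was 0.77 for the 24 and -0.05 over the 12671. Cell type markers also differed. Ivl was at 69.7 against 19.8 CPM and Cd68 at 73.4 against 30.3 CPM, higher in library 1269-2. Muc5ac, at 1.08 against 15.6 CPM, and Gif, at 7.45 against 40.7 CPM, were lower there. The part of cell types in the p53-induced genes was not tested. Gdf15, a stress cytokine, was at 45.3 CPM in library 1269-2 and 15.5 CPM in library 1269-1, and the arrest gene Cdkn1a at 576 and 288 CPM. These are 2 libraries of a single line, so the comparison has no replicate.

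Leaving library 1269-2 out, an alternative added after the data were seen, lowered the sizes without changing a direction for KO against WT. As a mean, Mdm2 was then at -0.89 ± 0.22, Ccng1 at -1.95 ± 0.37 and Mdm4 at -0.15 ± 0.12, the last a change of more than 1.5 times from -0.28. In non-dysplastic lines, Mdm2 was at -0.96 ± 0.31 and Mdm4 at -0.18 ± 0.17.

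**Figure D4:**
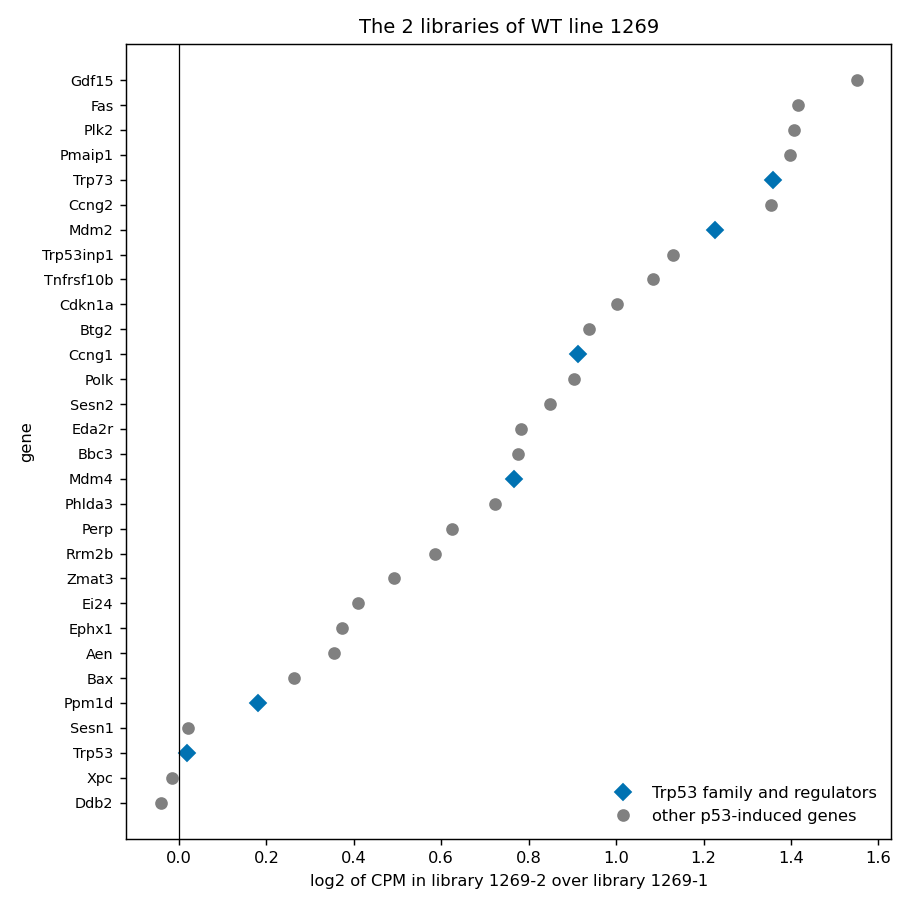
Log2 of CPM in library 1269-2 over library 1269-1 of WT line 1269 (x axis) for Trp53, its family and regulators (diamonds) and 24 other p53-induced genes (circles), sorted by value (y axis). Trp53 lies at 0.02, Mdm2 at 1.23 and Ccng1 at 0.91, and 22 of the 24 other genes lie above 0.

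Genes around the loop were counted by role, from lists that were drawn up with earlier results of these data known. Of 13 tested ligases and deubiquitinases of p53 or Mdm2, 8 were lower and 5 higher in KO as a mean, with a median log2 fold change of -0.01 and 0 called by edgeR, DESeq2 or limma-voom. The smallest p-values belonged to the ligases Rchy1, at 55.1 ± 8.97 CPM in KO lines against 63.9 ± 10.5 CPM in WT lines, and Trim24, at 56.04 ± 6.34 and 61.6 ± 5.35 CPM. Of 11 kinases of p53 and partners of Ppm1d and Ccng1, 10 were lower, with a median of -0.07 and 0 called. Chek2, a checkpoint kinase, averaged 34.0 ± 2.71 CPM in KO lines against 40.04 ± 4.92 CPM in WT lines, and Atr, a sensor of stalled replication, 38.7 ± 6.68 and 46.9 ± 10.7 CPM. Of 10 acetylases, deacetylases and cofactors, 4 were lower and 6 higher, with a median of 0.06 and 0 called, led by Ppp1r13l (39.5 ± 6.78 CPM in KO, 44.8 ± 8.29 CPM in WT) and Kat5 (49.1 ± 1.42 CPM in KO, 45.6 ± 4.06 CPM in WT).

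Among 6 tested inhibitors of Mdm2, 3 were lower and 3 higher in KO, and Cdkn2a, whose Arf product binds Mdm2, was the one gene called. Cdkn2a was at 284 CPM in line 794, 126 CPM in line 801, 64.2 CPM in line 650 and 58.8 CPM in line 1270 among KO lines, against 28.4 CPM in line 565, 21.8 CPM in line 752, 17.8 CPM in line 300 and 20.8 CPM in line 1269. Every KO line lay above every WT line, and the dysplastic KO lines were the highest. Over all 13476 genes tested, 124 (0.92%) had all KO lines above all WT lines, and DESeq2 called 36 higher in KO. The log2 fold change of Cdkn2a was 2.35 ± 0.27 (SE, edgeR adjusted p = 0.739, DESeq2 adjusted p = 2.95e-13). The counts do not separate Arf from the other product of the gene. The ribosomal proteins Rpl5, Rpl11, Rpl23 and Rps7, which bind Mdm2 when free, were not called.

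Of 24 other p53-induced genes tested, 19 were lower and 5 higher in KO, with a median log2 fold change of -0.63. EdgeR called 0, DESeq2 called 7 as lower (Bax, Zmat3, Phlda3, Trp53inp1, Ephx1, Gdf15 and Ei24), and limma-voom called these and Aen and Eda2r. The epoxide hydrolase gene Ephx1 averaged 91.6 ± 45.3 CPM in KO lines against 291.5 ± 54.4 CPM in WT lines, and the death-promoting gene Bax 82.6 ± 16.1 and 170.9 ± 24.9 CPM. Zmat3, an RNA-binding protein gene, averaged 37.3 ± 13.4 CPM in KO lines against 118 ± 35.7 CPM in WT lines. Cdkn1a was not called, at 134 ± 84.9 CPM in KO lines against 302 ± 85.9 CPM in WT lines, although its lines did not overlap. Members and listed genes share the same 8 lines, so their counts are not separate evidence.

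The genes with the pattern most like a member were those with the smallest root mean square difference of centred log2 CPM over the 8 lines, given here as a description. For Ccng1 they were Ephx1 (0.32), Zmat3 (0.33) and Psrc1 (0.35), and the same 3 came out over the 20 libraries. Mdm2 was nearest to Pvt1 (0.19), Inf2 (0.19) and Bax (0.21), of which Inf2 and Bax recurred over libraries. Trp53 was nearest to Fam212b (0.45), 9030617O03Rik (0.48) and Tnfsf4 (0.50). Of these Fam212b and 9030617O03Rik recurred over libraries, and Tnfsf4, at 0.317 ± 0.279 CPM in KO lines, did not. The measure grows with a gene's own spread: divided by the SD of the member over lines, the nearest gene lay at 0.22 for Trp53, 0.25 for Ccng1, 0.26 for Mdm2, 0.22 for Ppm1d and 0.18 for Mdm4. Ppm1d was nearest to Xk (0.09), Rpusd2 (0.11) and D830031N03Rik (0.12), of which only Rpusd2 recurred over libraries. Mdm4, whose SD of 0.27 barely passed the median of 0.26 over all genes, was nearest to Dcaf4 (0.05), Rb1 (0.08) and Zdhhc21 (0.10), none of which recurred over libraries.

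Levels of the 7 genes can be set beside one another only per length, here as CPM per kilobase of exon in GENCODE M21. In KO lines the order was Ccng1 at 38.6 ± 21.0, Mdm2 at 19.1 ± 5.02, Trp53 at 8.17 ± 5.86, Ppm1d at 6.25 ± 1.92 and Mdm4 at 2.24 ± 0.19 CPM per kilobase (SD, n = 4). In WT lines it was Ccng1 at 167 ± 68.4, Trp53 at 73.3 ± 12.8, Mdm2 at 42.0 ± 15.5, Ppm1d at 8.35 ± 1.92 and Mdm4 at 2.74 ± 0.71 CPM per kilobase. Mdm2 stood above Trp53 in each of the 4 KO lines and below it in each of the 4 WT lines. The order of means did not hold in every KO line: Trp53, at 2.67 in line 1270 and 3.70 in line 794, lay below Ppm1d, at 8.45 and 3.96 CPM per kilobase in the same lines. Trp63 and Trp73 averaged 0.034 CPM per kilobase or less in both genotypes, and their highest line value was 0.127 (Trp73 in WT line 1269).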

How the data were processed

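Raw gene counts for 20 libraries were used as the authors deposited them, as whole numbers with no normalization. The submitters' processing notes name bcl2fastq, STAR 2.5 and mouse build mm9. The annotation, the counter and the strand setting were not given in the sources used here. Of 24047 genes, 18180 had a count. Libraries of a line were summed, since the labels give them the same genotype, dysplasia class and KO mode. Genes were filtered with filterByExpr (13476 kept, 12671 for libraries), scaled by TMM and fitted with 1 mean per genotype within each dysplasia class (4 residual degrees of freedom) by the robust quasi-likelihood test of edgeR 4.0.16 in R 4.3.3, with Benjamini-Hochberg adjusted p under 0.05 as the call. An SE is the size of the log2 fold change divided by the square root of F. DESeq2 1.42.0 on line sums and limma 3.58.1 (voom, lines as correlated blocks, correlation 0.22) were alternatives. The procedures were tested on simulated data, where limma-voom made more false calls than the other tools. Simulated libraries of a line differed only by sampling noise, unlike the real ones, so that comparison of tools may not hold for these data. Centred log2 values used a prior count of 2. Of the symbols, 22452 matched a RefSeq symbol, and sequences are from RefSeq, GRCm38.p6. Exonic lengths are from GENCODE M21 and can differ from those counted. Chi-square tests between libraries of a line gave at least 5.84 per degree of freedom.

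Named genes were the 7 members, from each list the genes called by any of the 3 tools or else the 2 with the smallest p, and for each member the 3 genes most like it. Cdkn1a, Krt5, Ivl, the ribosomal protein genes and single markers were named after their values were seen. The members and lists were chosen with earlier results of these data known.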

Additional observations from a re-analysis of the deposited data

Results flagged for a closer look

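Line levels of the 7 genes were screened with Dixon's test within the 4 KO lines and within the 4 WT lines, which by chance marks about 1 in 20 groups. Among WT lines, line 1269 lay far from the nearest other line for Mdm2 at 204.5 CPM, Mdm4 at 41.2 CPM and Trp73 at 0.6754 CPM. For Mdm2 and Mdm4 the level was higher in library 1269-2 than in library 1269-1, at 292 against 125 CPM and 52.7 against 31.0 CPM. Line 1269 also had the lowest summed level of gastric mucous and chief cell markers, 218 CPM, against 565 to 1974 CPM in the other WT lines, and the part of this in the result was not tested. Among KO lines, line 1270 was marked for Trp73 at 0.03237 CPM, which is a single count against 0 in the others.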

How the results depend on the processing

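All 15 member values for KO against WT kept their sign in 19 of 19 alternatives. Over the fits that left out a line, which take the lone line left to vary like the others, as a mean Trp53 ran from -4.01 to -2.79, Ccng1 from -2.61 to -1.78, Mdm2 from -1.40 to -0.82, Mdm4 from -0.43 to -0.09 and Ppm1d from -0.66 to -0.24. The number of members called as a mean was 0 with edgeR, 3 with DESeq2, limma-voom and limma-voom with the replicate block, and 2 with a limma-voom term for the 6 libraries, where Mdm2 was lost (adjusted p = 0.0549). In dysplastic lines these 4 fits called 2, and in non-dysplastic lines 1. The median correlation of same-numbered libraries was 0.06 for number 1 and -0.01 for number 2. For number 3 it was 0.29, from -0.025 to 0.61 over 6 pairs, and every library numbered 3 was among the 6 with the length shift. The replicate block lost no member called by limma-voom without it.

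Differences near 0 changed sign, and the cause was not tested. For dysplasia, Trp53 was at 0.0411 with limma-voom, 0.0589 with the replicate block, 0.0462 with the 6-library term, 0.0542 without the 6 libraries and 0.17 with 5 group means, and Mdm2 was at 0.0185 without library 1269-2. Leaving out lines gave -0.59 to 0.78 for Trp53 and -0.41 to 0.0822 for Mdm2. For the interaction, Trp53 was at 0.0899, 0.12, 0.10, 0.0508 and 0.31 in the same 5 settings, and Ccng1 at 0.19 without the 6 libraries and 0.12 with 5 group means. Leaving out lines gave -1.22 to 1.52 for Trp53, -0.81 to 0.90 for Ccng1, -0.0519 to 1.14 for Mdm2, -0.13 to 0.59 for Mdm4 and -0.54 to 0.29 for Ppm1d. Depth limits Trp63 and Trp73, and 4 lines a genotype limit the rest.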
